A study of Drosophila melanogaster with 4 samples.

Results

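The proteasome subunit genes of Drosophila melanogaster were taken by name, as all gene rows whose name begins with Prosalpha, with Prosbeta, or with Rpn or Rpt and a digit. The rule found 47 of 13931 gene rows. Of these, 32 are the main copy of a subunit and 15 are further gene copies, whose names carry the ending T or R. The values count small RNAs bound to Piwi, not messenger RNA. They come from ovarian somatic cells (OSC), a cell line that represents the follicle cell lineage around the fly egg chamber. All cells received an siRNA against Yb (siYb) and made Flag-tagged Piwi, which was purified with a Flag antibody, and RNA of 23 to 30 nucleotides was sequenced. In 2 libraries the plasmid encoded Yb without its Hel-C domain, and these are called Yb ΔHel-C. In the other 2 libraries the plasmid encoded intact Yb, and these are called Yb WT. Yb in both groups was therefore supplied from a plasmid in cells with reduced endogenous Yb. The comparison asks how Piwi-bound RNA differs when Yb lacks Hel-C.

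The proteasome is the protease that degrades proteins marked with ubiquitin chains. Its core particle is a barrel of stacked alpha and beta rings that holds the proteolytic sites inside. A regulatory cap sits on the barrel and consists of a base, whose ATPase ring unfolds substrates and threads them into the core, and a lid, which removes the ubiquitin chain. The subunits are made in all cells, and several of the gene copies are known for expression in the male germline of the fly. Piwi carries piRNAs, small RNAs that guide transposon silencing in the nucleus, and in ovarian somatic cells a part of these RNAs is made from ordinary messenger RNAs. Yb concentrates the precursors of piRNAs in granules of the cytoplasm, the Yb bodies.

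The authors' values are 1 column per group, in reads per 1000000 reads (RPM), with totals of 2803305 reads in Yb ΔHel-C and 2955141 reads in Yb WT. Nothing below has a replicate check, since the spread between the 2 libraries of a group is not seen. One read was worth 0.357 RPM in Yb ΔHel-C and 0.338 RPM in Yb WT, and a row at 0 allows up to 1.07 RPM and 1.02 RPM, for counting error only. Ratios are RPM in Yb ΔHel-C over RPM in Yb WT, with exact conditional 95% intervals from the reads. Log2 folds are differences of log2 (RPM + 0.5), tested among the 7577 genes that averaged 1 RPM or more over both columns. A gene was called when it was at least 2-fold apart on that scale and passed an exact conditional binomial test on its reads, at an adjusted p of 0.05 by Benjamini-Hochberg. That test compares the 2 columns, not the conditions. All 5 markers of ovarian somatic cells (tj, fs(1)Yb, Fas3, zfh1 and ptc) had reads, 8076 RPM in Yb ΔHel-C and 8698 RPM in Yb WT in sum; Fas3 and ptc were called higher and the other 3 neither. The 5 ovarian germline markers (vas, nos, osk, aub and bam) summed to 25 reads in Yb ΔHel-C and 41 in Yb WT; of these, aub was called lower and none higher.

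Proteasome genes carried more Piwi-bound reads in Yb ΔHel-C on the authors' totals. The 47 rows together held 730.2 RPM (2047 reads) in Yb ΔHel-C and 324 RPM (956 reads) in Yb WT, a ratio of 2.26 (2.09 to 2.44). They made up 0.0926% of all gene reads in Yb ΔHel-C and 0.0504% in Yb WT. Relative to the sum of all other gene rows, this sum was 1.84-fold higher (1.70 to 1.99), a value that no scaling of the columns can change. That sum gives most weight to rows with many reads, such as tj, with 12561 reads in Yb ΔHel-C and 20604 in Yb WT. It does not stand for the typical gene: the median log2 fold was 1.23 for the tested members and 0.89 over all tested genes. In these bulk libraries, a change in the number of cells that make Piwi-bound reads on these genes and a change per cell cannot be told apart.

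Of the 47 rows, 34 passed the minimum of 1 RPM, 31 main copies and 3 further copies. Of these 34, 20 were called 2-fold higher, 0 lower and 14 neither. The background was high: 40.6% of all tested genes were called higher and 3.21% lower. The median log2 fold of the 34 members was 1.23, against 0.89 over all tested genes. Genes with few reads are called less often, so the members were also set beside genes of like level. Of the 22 members with a mean from 10 to 100 RPM, 15 were called higher, against 54.9% of the 3209 genes in that range, and their median log2 fold was 1.40 against 1.09. Of the 12 members from 1 to 10 RPM, 5 were called higher, against 30.3% of 3025 genes, with medians of 0.96 and 0.78. In these 2 ranges 1.31% and 4.53% of genes were called lower, and no member was. With no minimum fold, 21 of the 34 members were called higher and 0 lower, against 57.1% and 7.69% of all tested genes. The members' share of calls was thus above that of all genes by a margin that narrowed once level or the minimum fold was taken into account.

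The size of that shift depends on the scaling. TMM and RLE factors, which take most rows as unchanged, brought the median log2 fold of all tested genes to 0.10 and 0.054, and that of the members to 0.47 and 0.43. With TMM 5 members were called higher and 1 lower, against 8.59% and 11.4% of all genes. With RLE 4 were called higher and 1 lower, against 7.22% and 12.1%. The 5 called higher with TMM were Rpn6, Prosbeta2R2, Prosalpha3, Prosalpha5 and Prosbeta6, and all but Prosbeta6 were also called with RLE. Scaled to the gene reads alone, 15 members were called higher and 0 lower, against 27.6% and 5.07% of genes.

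**Figure D1:**
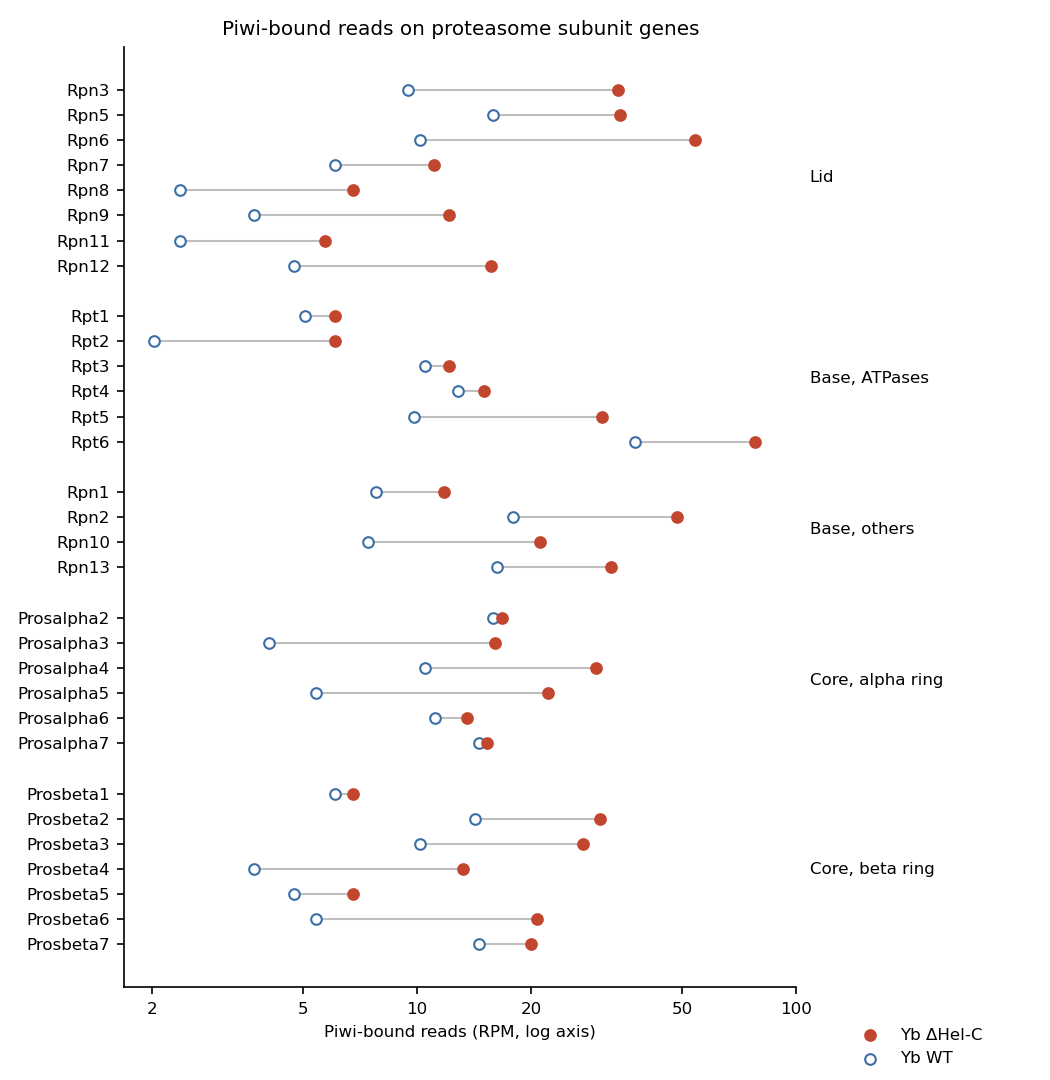
Piwi-bound reads in RPM (log axis) for the 31 main-copy proteasome genes that averaged 1 RPM or more, grouped by lid, base and core particle. Filled red points are Yb ΔHel-C, open blue points Yb WT, 1 authors' value each; the red point lies to the right in all 31, by the widest margin in Rpn6 (54.2 against 10.2 RPM).

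The lid showed the highest ratio of the parts of the proteasome. Its 8 genes together held 174 RPM (487 reads) in Yb ΔHel-C and 54.8 RPM (162 reads) in Yb WT, a ratio of 3.17 (2.65 to 3.81). Of the 8, 6 were called 2-fold higher and 2 neither, against 40.6% of all tested genes called higher (54.9% of those from 10 to 100 RPM and 30.3% of those from 1 to 10 RPM). The median log2 fold was 1.46, against 0.89 over all tested genes (1.09 over those from 10 to 100 RPM and 0.78 over those from 1 to 10 RPM). Rpn6, a scaffold subunit of the lid (2R, 14750166 to 14752910, dm6), had 152 reads (54.2 RPM) in Yb ΔHel-C and 30 reads (10.2 RPM) in Yb WT. Its ratio of 5.34 (3.59 to 8.19) was the highest of all main copies. Its span overlaps ave by 390 bases, and ave had 2 reads in Yb ΔHel-C and 1 in Yb WT.

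Rpn3, Rpn12 and Rpn9, further scaffold subunits of the lid, followed at similar ratios. Rpn3 (2L, 19051790 to 19053681) had 95 reads in Yb ΔHel-C and 28 in Yb WT, a ratio of 3.58 (2.33 to 5.66). Rpn12 (3L, 16583028 to 16584022) had 44 reads in Yb ΔHel-C and 14 in Yb WT, a ratio of 3.31 (1.78 to 6.55). Rpn9 had 34 reads in Yb ΔHel-C and 11 in Yb WT, a ratio of 3.26 (1.61 to 7.13). Their intervals overlap one another and that of Rpn6, so counting error alone does not separate them.

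Rpn5, the lid gene with the highest level per kilobase of gene span in Yb WT (7.66 RPM), had 96 reads in Yb ΔHel-C and 47 in Yb WT, a ratio of 2.15 (1.50 to 3.12). Rpn7 had 31 reads in Yb ΔHel-C and 18 in Yb WT, and its interval (0.984 to 3.45) just held 1. Rpn11 is the enzyme that cuts ubiquitin chains from substrates, and Rpn8 is its partner. Rpn11 had 16 reads in Yb ΔHel-C and 7 in Yb WT and was not called, at a ratio of 2.41 (0.938 to 6.93). Rpn8 had 19 reads in Yb ΔHel-C and 7 in Yb WT, a ratio of 2.86 (1.15 to 8.05). The span of Rpn8 overlaps that of the kinase gene Slik by 2653 bases, and Slik had 1135 reads in Yb ΔHel-C and 758 in Yb WT. The sources used here do not say how reads in such overlaps were assigned. Sem1, the small lid subunit that the name rule does not take, had 4 reads in Yb ΔHel-C and 3 in Yb WT.

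The base is the part that contains the ATPase ring, the large scaffold subunits and the ubiquitin receptors. Its 10 genes together held 261 RPM (733 reads) in Yb ΔHel-C and 127 RPM (376 reads) in Yb WT, a ratio of 2.06 (1.81 to 2.33). Of the 10, 5 were called 2-fold higher and 5 neither, near the share of all tested genes called higher (40.6%, and 54.9% of those from 10 to 100 RPM). The median log2 fold was 1.01, against 0.89 over all tested genes (1.09 over those from 10 to 100 RPM and 0.78 over those from 1 to 10 RPM). The 6 ATPase genes had a summed ratio of 1.90 (1.61 to 2.24) and the 4 others 2.30 (1.89 to 2.82). The ratio of these ratios was 0.824 (0.634 to 1.07), an interval that holds 1.

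Among the ATPases, Rpt6 (X, 21316052 to 21317663) carried the most reads of any proteasome gene, with 218 (77.8 RPM) in Yb ΔHel-C and 111 (37.6 RPM) in Yb WT. Its ratio was 2.07 (1.64 to 2.63). Its span overlaps CG1801 over 1471 bases, and CG1801 had 2 reads in each column. How reads in this overlap were assigned is not given. Rpt5 (3R, 23752876 to 23754623) had 86 reads in Yb ΔHel-C and 29 in Yb WT, a ratio of 3.13 (2.03 to 4.94). Rpt2 had 17 reads in Yb ΔHel-C and 6 in Yb WT, a ratio of 2.99 (1.12 to 9.25). The other ATPases lay near 1. Rpt1 had 17 reads in Yb ΔHel-C and 15 in Yb WT, Rpt3 had 34 in Yb ΔHel-C and 31 in Yb WT, and Rpt4 had 42 in Yb ΔHel-C and 38 in Yb WT. Their ratios were 1.19 (0.561 to 2.57), 1.16 (0.690 to 1.95) and 1.17 (0.733 to 1.86). Of the 6 subunits of a single ring, present once each in that ring, 3 were called higher and 3 had intervals that held 1. That share is near that of all tested genes called higher (40.6%, and 54.9% of those from 10 to 100 RPM). The interval of Rpt1 overlaps those of all 3 called genes, and those of Rpt3 and Rpt4 lie wholly below that of Rpt5 alone. Overlap of intervals does not show that ratios are equal, and single ATPases were not compared directly. With TMM and RLE none of the 6 was called. The whole span of Rpt1 lies within that of CG17985, which had 49 reads in Yb ΔHel-C and 11 in Yb WT.

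Among the other base genes, Rpn2 (3R, 29153524 to 29157255), a large scaffold subunit, had 136 reads in Yb ΔHel-C and 53 in Yb WT, a ratio of 2.71 (1.96 to 3.79). Rpn1, the other large scaffold, had 33 reads in Yb ΔHel-C and 23 in Yb WT and was not called, at 1.51 (0.862 to 2.70). The ubiquitin receptor Rpn10 (3L, 21537000 to 21538582) had 59 reads in Yb ΔHel-C and 22 in Yb WT, a ratio of 2.83 (1.71 to 4.85). The other receptor, Rpn13, had 91 reads in Yb ΔHel-C and 48 in Yb WT. Its ratio of 2.00 (1.39 to 2.90) came to a log2 fold of 0.98 on RPM + 0.5 and just missed the 2-fold minimum, and Rpt6, at 1.04, just passed it.

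**Figure D2:**
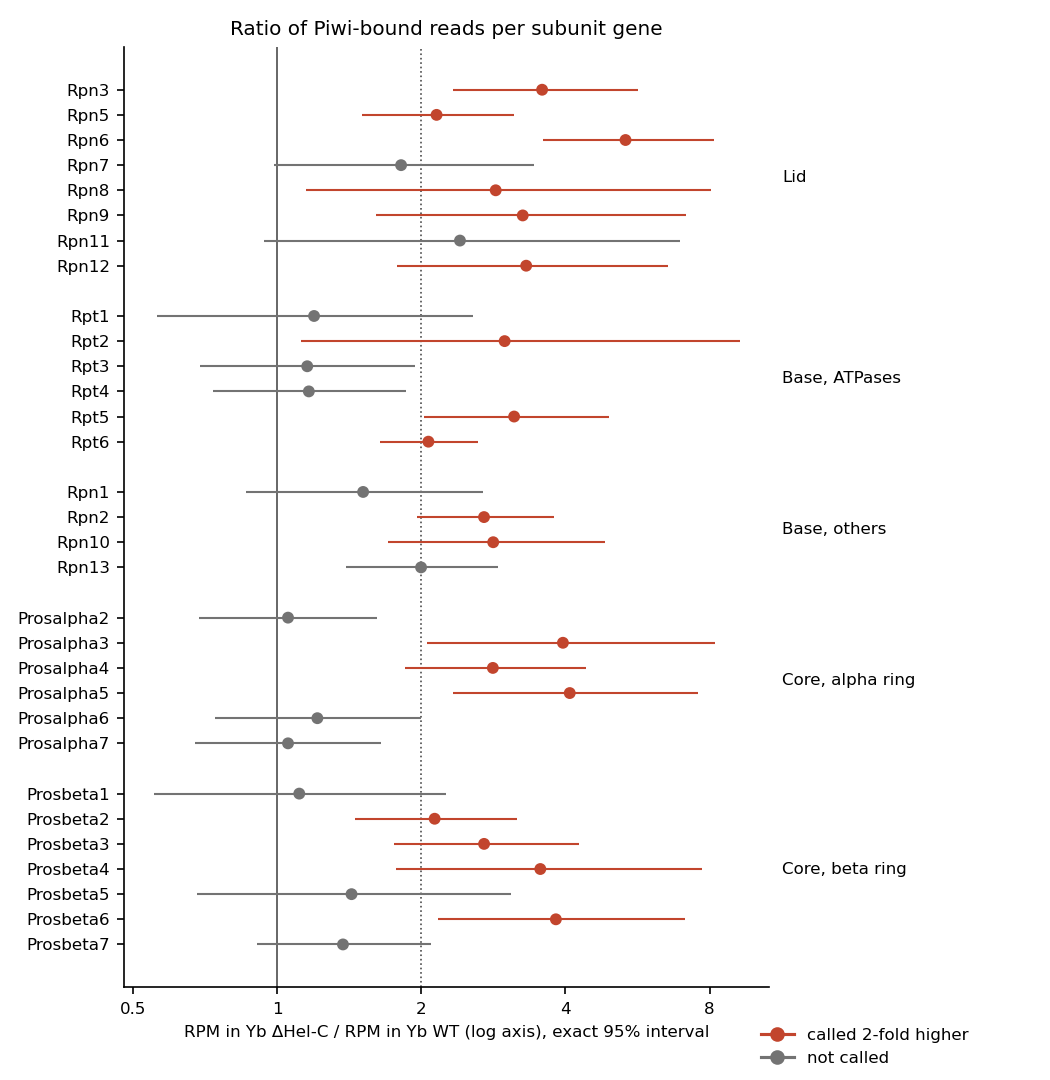
Ratio of RPM in Yb ΔHel-C over Yb WT (log axis) for the same 31 genes, with exact 95% intervals for counting error only. Red marks genes called 2-fold higher and grey those not called; the solid line is a ratio of 1 and the dotted line 2. Of the lid genes 6 of 8 are red, of the base genes 5 of 10 and of the core particle genes 7 of 13.

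The 14 genes of the core particle together held 239 RPM (669 reads) in Yb ΔHel-C and 120 RPM (356 reads) in Yb WT, a ratio of 1.98 (1.74 to 2.26). Of the 13 tested, 7 were called 2-fold higher and 6 neither, near the share of all tested genes called higher (40.6%, and 54.9% of those from 10 to 100 RPM). The median log2 fold was 1.07, against 0.89 over all tested genes (1.09 over those from 10 to 100 RPM and 0.78 over those from 1 to 10 RPM). No member lay between log2 folds of 0.47 and 1.07: the 7 called genes were at or above the upper value and the 6 others at or below the lower. This was the widest gap among these 13 values, picked after they were seen, and it spans the 2-fold minimum. The summed ratio was 1.84 (1.53 to 2.22) for the alpha ring and 2.13 (1.77 to 2.57) for the beta ring. Their ratio of 0.866 (0.664 to 1.13) holds 1.

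In the alpha ring, which forms the gate of the barrel, Prosalpha5 (2R, 17412767 to 17413769) had 62 reads (22.1 RPM) in Yb ΔHel-C and 16 (5.41 RPM) in Yb WT, a ratio of 4.08 (2.33 to 7.58). Prosalpha3 (2R, 20994900 to 20996118) had 45 reads in Yb ΔHel-C and 12 in Yb WT, a ratio of 3.95 (2.06 to 8.21). Prosalpha4 had 83 reads in Yb ΔHel-C and 31 in Yb WT, a ratio of 2.82 (1.85 to 4.41). These 3 were the called members of the ring. Prosalpha2 (3R, 12431321 to 12432556) had 47 reads in each column (1.05, 0.688 to 1.61). Prosalpha7 (2R, 9846636 to 9847836) had 43 reads in each (1.05, 0.674 to 1.65). Prosalpha6 had 38 reads in Yb ΔHel-C and 33 in Yb WT (1.21, 0.741 to 2.00). The intervals of Prosalpha2 and Prosalpha7 lie wholly below that of Prosalpha5, so these subunits of the same ring differed by more than their counting error. They are the lowest and the highest ratios of the ring, picked after they were seen, with no allowance for the number of pairs.

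In the beta ring, which holds the proteolytic sites, reads were likewise uneven. Prosbeta6 (3L, 16609400 to 16610418) had 58 reads in Yb ΔHel-C and 16 in Yb WT, a ratio of 3.82 (2.17 to 7.12). Prosbeta4 (2L, 16731180 to 16732133) had 37 reads in Yb ΔHel-C and 11 in Yb WT, a ratio of 3.55 (1.77 to 7.71). Prosbeta3 had 77 reads in Yb ΔHel-C and 30 in Yb WT, a ratio of 2.71 (1.75 to 4.27). None of these 3 subunits carries a proteolytic site. Of the catalytic subunits, Prosbeta2 had 85 reads in Yb ΔHel-C and 42 in Yb WT and was called, at 2.13 (1.46 to 3.17). Prosbeta1 had 19 reads in Yb ΔHel-C and 18 in Yb WT (1.11, 0.553 to 2.25), and Prosbeta5 had 19 in Yb ΔHel-C and 14 in Yb WT (1.43, 0.680 to 3.08). The remaining subunit, Prosbeta7, had 56 reads in Yb ΔHel-C and 43 in Yb WT (1.37, 0.906 to 2.09).

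Prosalpha1 was the only main copy without reads, with 0 in both columns (2R, 7827303 to 7828678). A copy of this gene, listed as CG30382 and named Prosalpha1R in RefSeq, lies 1734 bases away and also had 0 reads in both columns. The sources used here do not say how reads that map to several places were treated, so a 0 on this pair cannot be read as absence of Piwi-bound RNA.

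The difference between the parts of the proteasome was taken from the reads directly, since a ratio of ratios is the same under every scaling. The lid ratio was 1.60-fold that of the core particle (1.28 to 2.01) and 1.54-fold that of the base (1.24 to 1.93). These intervals cover the counting error of pooled reads and not the spread between the genes of a part. Log2 folds of single genes ran from 0.81 to 2.36 in the lid, from 0.20 to 1.60 in the base and from 0.074 to 1.94 in the core particle. Whether the lid genes differ as a class was not tested. The base and the core particle did not differ beyond counting error (1.04, 0.864 to 1.25). Without Rpn6 the lid was 1.35-fold above the core particle (1.06 to 1.73) and 1.30-fold above the base (1.02 to 1.66). Of the main copies, 16 overlap no other gene, among them 4 lid and 7 core particle genes. Over those alone the ratio of lid to core particle was 1.32 (0.975 to 1.79), an interval that holds 1. Over the 4 lid and 7 core particle genes that do overlap another, the ratio was 2.04 (1.44 to 2.90). Rpn6 is among these 4 lid genes, so the split does not separate overlap from the share of Rpn6. The split was chosen after seeing the data.

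**Figure D3:**
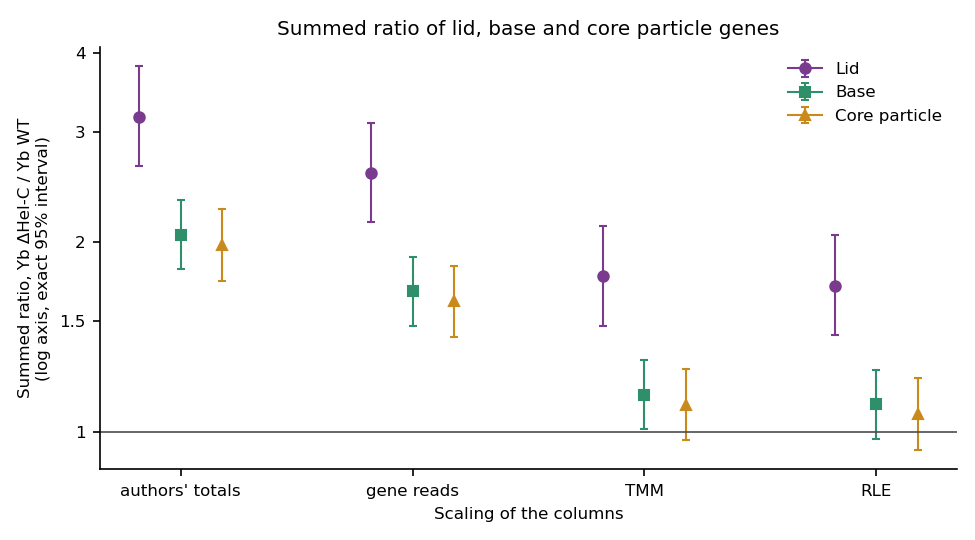
Summed ratio of Yb ΔHel-C over Yb WT (log axis) for the genes of the lid, the base and the core particle, with exact 95% intervals for counting error only, under 4 scalings of the columns. The lid lies above the others under each, from 3.17 on the authors' totals to 1.71 with RLE, and the interval of the core particle reaches below 1 with TMM and RLE, and that of the base with RLE.

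Across the 31 tested main copies, all had a higher RPM in Yb ΔHel-C on the authors' totals, but 10 of them turned below 0 on the log2 scale with TMM and 11 with RLE. The intervals of 19 lay above 1 and those of 12 held it. Reads per gene ranged from 16 to 218 in Yb ΔHel-C and from 6 to 111 in Yb WT, with medians of 16.1 RPM in Yb ΔHel-C and 9.48 RPM in Yb WT. The summed ratio of all 47 rows (2.26) lay below the interval of 3 of them and above that of 7. Spearman's correlation between the 2 columns was 0.676 over these 31 genes, which share the 2 columns and their depth. The log2 fold showed little relation to the length of the gene (0.030) or to its summed RPM over both columns (0.148).

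Levels of the 31 tested main copies were compared per kilobase of gene span, introns included. Rpt6 had the highest level in both columns, at 48.2 RPM per kb in Yb ΔHel-C and 23.3 RPM per kb in Yb WT. Prosbeta3 was next in Yb ΔHel-C, with 30.1 RPM per kb, against 11.1 RPM per kb in Yb WT. In Yb WT the next were Prosalpha2 and Prosalpha7, which had 13.6 and 12.8 RPM per kb in Yb ΔHel-C, and 12.9 and 12.1 RPM per kb in Yb WT. Rpn8 was the lowest of these 31, with 1.51 RPM per kb in Yb ΔHel-C and 0.526 RPM per kb in Yb WT. The median was 13.3 RPM per kb in Yb ΔHel-C and 5.31 RPM per kb in Yb WT.

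Most of the 15 further gene copies had no reads. Of these, 10 were at 0 in both columns, against 1 of the 32 main copies and 31.6% of all gene rows. The 10 were Prosalpha3T, Prosalpha4T1, Prosalpha6T, Prosbeta2R1, Prosbeta4R1, Prosbeta4R2, Prosbeta5R1, Rpn12R, Rpn13R and Rpt4R. Prosalpha4T2 had 1 read in each column and Prosbeta5R2 had 0 in Yb ΔHel-C and 1 in Yb WT. The main copies of all these genes carried reads, from 19 to 91 in Yb ΔHel-C and from 11 to 48 in Yb WT. Prosalpha4T1, Rpn12R and Rpn13R lie over their whole span within other genes. How reads in overlaps or reads that map to several places were assigned is not given. A 0 on a copy therefore cannot be read as absence of Piwi-bound RNA.

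Only 3 copies passed the minimum of 1 RPM. Rpt6R (3R, 30582198 to 30583697) had 122 reads (43.5 RPM) in Yb ΔHel-C and 45 (15.2 RPM) in Yb WT, a ratio of 2.86 (2.02 to 4.12). Its level per kilobase of gene span, 29.0 RPM in Yb ΔHel-C and 10.2 RPM in Yb WT, was above that of 5 of the 6 main ATPases in both columns. Prosbeta2R2 (3R, 5217751 to 5219528) had 32 reads (11.4 RPM) in Yb ΔHel-C and 5 (1.69 RPM) in Yb WT, a ratio of 6.75 (2.61 to 22.2), the highest of all 47 rows. Rpt3R (3R, 9754735 to 9756510) was the only tested member with a lower RPM in Yb ΔHel-C, with 3 reads against 10 in Yb WT, 3.16-fold lower (0.814 to 17.9). It was not called on the authors' totals and was called lower with TMM and RLE. Reads that a copy shares with its main copy could be split between them by the authors' counting.

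Markers of the testis germline, in which several of these copies are known to act, were set beside them. Of 8 markers, can, nht and dj were at 0 in both columns, and sa and Mst87F had 0 reads in Yb ΔHel-C and 1 in Yb WT. The list summed to 128 reads (45.7 RPM) in Yb ΔHel-C and 177 reads (59.9 RPM) in Yb WT. Nearly all lay on twe, with 52 in Yb ΔHel-C and 121 in Yb WT, mia, with 53 in Yb ΔHel-C and 11 in Yb WT, and bol, with 23 in Yb ΔHel-C and 43 in Yb WT. Of these, twe was called 2-fold lower and mia higher. The part of other cell types in the reads on Rpt6R and Prosbeta2R2 was not tested.

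**Figure D4:**
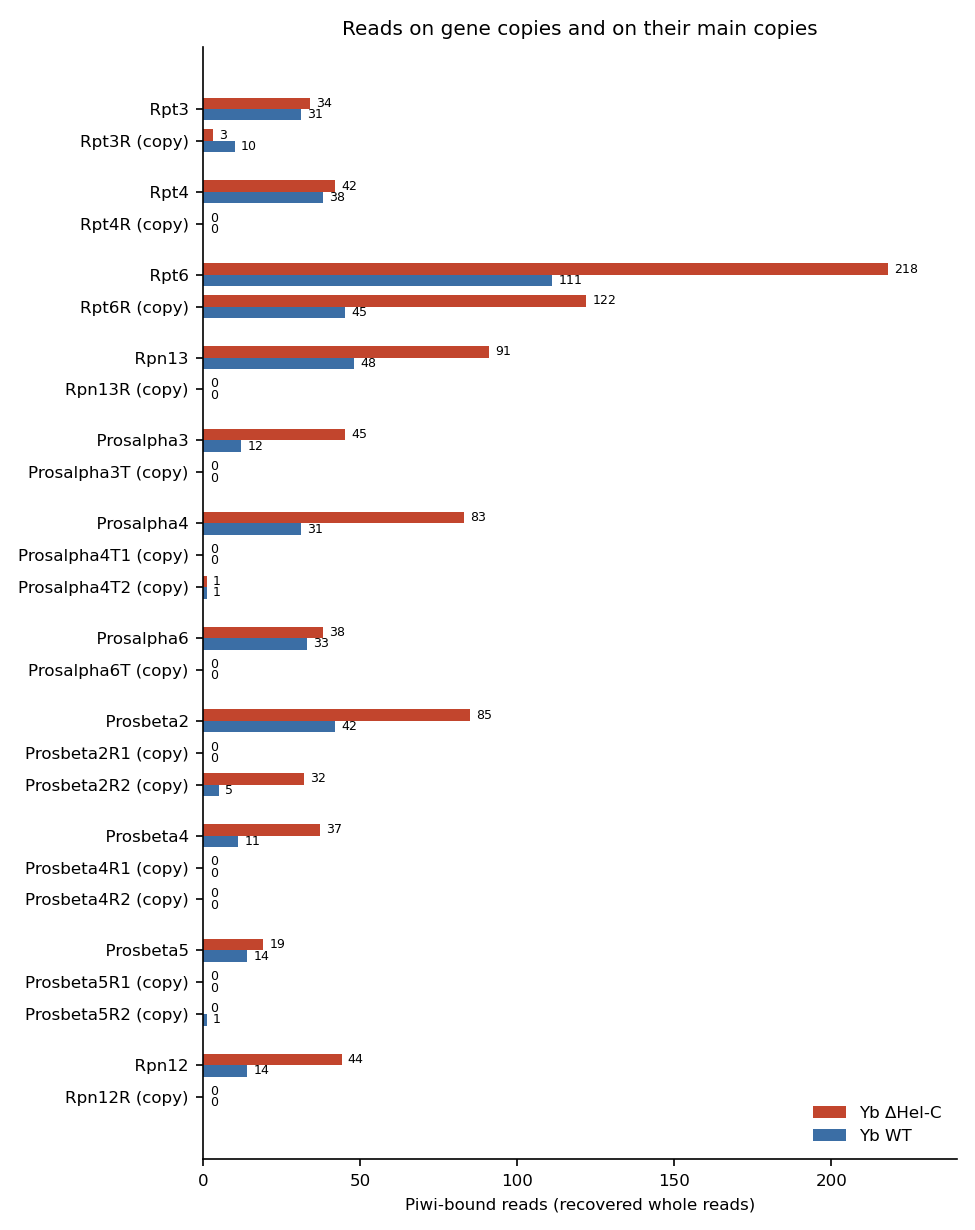
Recovered reads on the 15 further gene copies and on the main copy of each, with Yb ΔHel-C in red and Yb WT in blue; the number at each bar is its read count. Apart from Rpt6R (122 in Yb ΔHel-C, 45 in Yb WT), Prosbeta2R2 (32 in Yb ΔHel-C, 5 in Yb WT) and Rpt3R (3 in Yb ΔHel-C, 10 in Yb WT), every copy has 0 or 1 read.

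The genes that work around the proteasome were described from lists, chosen with earlier results of these data known. The COP9 signalosome removes the ubiquitin-like protein Nedd8 from cullins, and its subunits are the closest relatives of those of the lid. Of its 8 tested genes, 5 were called 2-fold higher and 3 neither, against 40.6% of all tested genes called higher. The share was 54.9% of genes from 10 to 100 RPM and 30.3% of those from 1 to 10 RPM. Their median log2 fold was 1.06, against 0.89 over all tested genes (1.09 over those from 10 to 100 RPM and 0.78 over those from 1 to 10 RPM). CSN4 had 177 reads in Yb ΔHel-C and 36 in Yb WT, a ratio of 5.18 (3.61 to 7.64), and CSN1b had 39 in Yb ΔHel-C and 9 in Yb WT, a ratio of 4.57 (2.18 to 10.7). CSN5, the enzyme of the complex and the relative of Rpn11, had 10 reads in Yb ΔHel-C and 8 in Yb WT. The summed ratio of the list was 2.69 (2.30 to 3.15), and the lid ratio was 1.18-fold that of the list (0.926 to 1.50), an interval that holds 1.

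Of 20 genes for assembly, regulation and substrate delivery of the proteasome, 9 were called 2-fold higher, 0 lower and 11 neither, a share near the 40.6% of all tested genes called higher. The median log2 fold of 0.96 was near the 0.89 of all tested genes. TER94, the segregase that pulls ubiquitinated proteins from complexes, had 247 RPM in Yb ΔHel-C and 66.7 RPM in Yb WT, a ratio of 3.70 (3.16 to 4.36). The shuttle receptor Ubqn had 607 RPM in Yb ΔHel-C and 263 RPM in Yb WT, a ratio of 2.31 (2.12 to 2.52). Uch-L5 and Usp14, the ubiquitin proteases that bind the cap, were at 2.74 (1.90 to 4.005) and 2.40 (1.64 to 3.57). The assembly chaperone Pomp was at 2.06 (1.42 to 3.02). cnc, the transcription factor gene that drives proteasome genes, had 199 RPM in Yb ΔHel-C and 132 RPM in Yb WT and was not called, at 1.51 (1.32 to 1.72).

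Of 30 genes for ubiquitin supply, conjugation and removal, 17 were called 2-fold higher, 0 lower and 13 neither, against 40.6% higher and 3.21% lower of all tested genes. The median log2 fold was 1.07, against 0.89 over all tested genes. Uba1, the ubiquitin-activating enzyme, had 297 RPM in Yb ΔHel-C and 97.8 RPM in Yb WT, a ratio of 3.04 (2.65 to 3.49). The polyubiquitin gene Ubi-p5E had 388 RPM in Yb ΔHel-C and 75.8 RPM in Yb WT, a ratio of 5.12 (4.43 to 5.94). The other polyubiquitin gene, Ubi-p63E, had 21 reads in Yb ΔHel-C and 15 in Yb WT. Ubiquitin repeats are nearly identical between these genes, so their reads are uncertain. The scaffold gene Cul1 had 1782 RPM in Yb ΔHel-C and 601 RPM in Yb WT, a ratio of 2.96 (2.81 to 3.13). The F-box genes that deliver its substrates lay near 1, with slmb at 294 RPM in Yb ΔHel-C and 295 RPM in Yb WT, and ago at 828 RPM in Yb ΔHel-C and 885 RPM in Yb WT. The medians of the 3 lists, like that of the members, fell with TMM, to 0.26 for the COP9 signalosome, 0.13 for the helpers and 0.23 for ubiquitin conjugation.

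**Figure D5:**
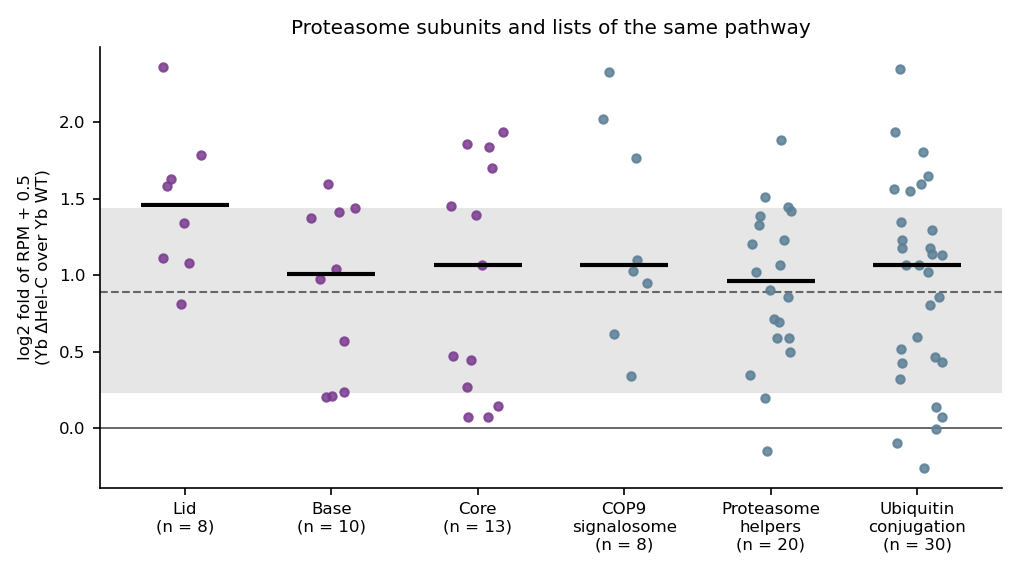
Log2 fold of RPM + 0.5, Yb ΔHel-C over Yb WT, for each tested gene (points) of the lid, base and core particle (purple) and of 3 pathway lists (grey blue); black bars are medians. The dashed line is the median of all 7577 tested genes (0.89) and the grey band their interquartile range (0.24 to 1.44). The lid median of 1.46 lies just above the band. It does not exceed the upper quartile of genes from 1 to 10 RPM (1.463) or from 10 to 100 RPM (1.50).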

How the data were processed

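Piwi-bound small RNAs of 4 libraries were represented by 1 deposited table with 2 value columns. The deposited values were taken as RPM, the authors' reads per 1000000 reads, because of how they are spaced, since the header names no unit. Per the submitters' processing notes, STAR, HTSeq and the builds BDGP6 and dm6 were used, in roles and versions the notes leave out. Strand setting, multi-mapping rule and pooling of a group's 2 libraries remain not given in the sources used here. Columns of other samples numbered 0. In both columns 100% of values above 0 were whole multiples of 1 read within 0.01 read, and these reads were used for intervals and tests. On them the call rule gave 3075 genes higher and 243 lower.

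With 1 column per group no test over replicates was possible. The pseudocount was 0.5 RPM. Intervals are exact conditional (Clopper-Pearson) intervals, and ratios of ratios have conditional exact intervals. The labels name no molecular identifiers, so intervals and floors (3 reads) cover counting error only. Python 3.11.15, scipy 1.17.1, pandas 2.3.3 and edgeR 4.0.16 (TMM and RLE factors over all rows) were used, and the scripts were tested on simulated data. All 47 names matched RefSeq, whose Release 6 (dm6) positions are printed, without regard to strand. Alternatives were 3 other scalings, 3 filters, pseudocounts of 0.1 and 1, no minimum fold, and sums without the largest row. Every row that meets the name rule was a gene to be named. The members and lists were chosen with earlier results of these data known.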

Additional observations from a re-analysis of the deposited data

How the results depend on the processing

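Other filters were no filter, at least 1 RPM in both columns, and a mean of at least 10 RPM. With these, pseudocounts of 0.1 and 1 and no minimum fold, between 15 and 21 members were called higher and 0 lower. The 15 were of 22 members with a mean of at least 10 RPM, where 2158 of 4552 genes were called higher. With no filter it was 20 of 36, against 3039 of 9523 genes, and with no minimum fold 21 of 34, against 4327 of 7577. The members' medians ran from 1.10 to 1.40, and those of all genes from 0.78 to 0.95. Scaling decided the rest. Against 20 higher and 0 lower on the authors' totals, TMM gave 5 and 1 and RLE 4 and 1, and the members' median log2 fold fell to 0.43 with RLE. The share of all tested genes called higher fell as well, from 40.6% to 8.59% with TMM and 7.22% with RLE. The summed ratios with TMM, RLE and the gene total were 1.26, 1.22 and 1.84 for the proteasome, 1.10, 1.07 and 1.61 for the core particle, 1.15, 1.11 and 1.67 for the base, and 1.77, 1.71 and 2.58 for the lid. Leaving out the row with the most reads left each sum within its interval, and the proteasome ratio without each member in turn ran from 2.16 to 2.32. The ratio of lid to core particle fell to 1.32 (0.975 to 1.79) over genes without overlap, a split chosen after seeing the data. Uncalled members turned negative: Prosalpha2 (-0.74 with TMM, -0.79 with RLE, -0.22 on the gene total), Prosalpha7 (-0.74, -0.79, -0.22), Rpt4 (-0.60, -0.65, -0.075), Prosalpha6 (-0.54, -0.59, -0.018), Rpt3 (-0.61, -0.65, -0.086), Prosbeta1 (-0.64, -0.69, -0.14), Rpt1 (-0.54, -0.58, -0.039), and, with TMM and RLE alone, Prosbeta7 (-0.38, -0.42), Rpn1 (-0.23, -0.28) and Prosbeta5 (-0.30, -0.35), and Rpn7 with RLE alone (-0.031). These shifts follow from the construction of the factors. No paired analysis was possible because each group has 1 value column, and for the same reason no replicate could be left out. At this depth members with under about 20 reads in a column have intervals several-fold wide.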

Other observations

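By chromosome arm, the main copies of proteasome genes summed to a ratio of Yb ΔHel-C over Yb WT of 1.88 (1.59 to 2.24) for 4 genes on X, 2.48 (1.90 to 3.27) for 4 on 2L, 2.43 (2.05 to 2.87) for 10 on 2R, 2.51 (2.02 to 3.15) for 5 on 3L and 2.15 (1.86 to 2.49) for 9 on 3R. The intervals overlap. The X-linked sum rests largely on Rpt6, with 218 of its 377 reads in Yb ΔHel-C and 111 of its 211 reads in Yb WT.

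Values of a few genes that share bases with a proteasome gene, chosen after they were seen, were as follows. Prosalpha2 had 47 reads in each column, and Aos1, which overlaps it by 24 bases, had 266 reads in Yb ΔHel-C and 55 in Yb WT. The DNA repair gene phr overlaps Prosalpha1, which had 0 reads in both columns, by 17 bases, and had 125 reads in Yb ΔHel-C and 28 in Yb WT.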
